A study of Rattus norvegicus with 7 samples.

Results

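Neurotrophins and the GDNF (glial cell line-derived neurotrophic factor) system were examined in the whole brain of rats bred for high or low alcohol drinking. The genes set out for this were Bdnf, Ntf3, Ntrk2, Ntrk3, Ngfr, Gdnf and Ret. Their probes were taken by the RefSeq transcript that the array files name for each spot, and 7 of the 33849 transcript probes matched, for 6 of the 7 genes (6 of 6046 genes named on the array). Bdnf, Ntf3, Ntrk3, Ngfr and Gdnf had 1 probe each, Ret had 2 that name the same transcript, and Ntrk2, the receptor of BDNF, had none matched in this way and was not analysed here. In the RefSeq table of the GRCr8 assembly, used for names only, Bdnf lies on chromosome 3, Ntf3 and Ret on chromosome 4, Ntrk3 on chromosome 1, Ngfr on chromosome 10 and Gdnf on chromosome 2.

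The tested animals were 4 alcohol-preferring (P) rats, replicates 1 to 4, set against 3 alcohol-non-preferring (NP) rats, replicates 2 to 4. A further NP array had been dropped by the submitters in quality control. All were adult males of selectively bred lines labelled with the Wistar strain, were housed in pairs and, by the title of the series, had no experience of alcohol. RNA of each rat was hybridized to its own 1-colour array, so the comparison asks whether these transcripts differ between the lines before any drinking. The lines are a model of alcohol preference made by selection, with no transgene or drug. Whole brain was homogenized, so fewer cells of a type and less RNA per cell cannot be told apart, and a difference confined to a small nucleus would be diluted.

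Neurotrophins are secreted growth factors that keep neurons alive during development and tune synapses in the adult brain. BDNF acts through the receptor kinase TrkB (Ntrk2), neurotrophin-3 mainly through TrkC (Ntrk3), and all neurotrophins, as well as their uncleaved precursors, bind the p75 receptor (Ngfr). GDNF is a distant relative of the TGF-beta family that binds a GFR-alpha co-receptor, which then engages the receptor kinase Ret, and it is known as a survival factor of midbrain dopamine neurons. BDNF and GDNF in particular have been studied in rodents as factors that limit alcohol intake.

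The files carried 26361 to 27608 probes above background in P rats and 27577 to 29091 in NP rats. Arrays had been scanned on 3 dates: the first date held P 1, P 2, NP 2 and NP 3, the second NP 4 alone and the third the remaining P rats, P 3 and P 4. Only date 1 therefore held both lines. Of the markers for the labelled tissue, all 6 tested astrocyte genes and 4 of 5 oligodendrocyte genes were above background on every array, and the fifth, Mog, on 5 arrays. Mog was bright (mean 10.98 in P and 11.43 in NP) but had values on only 2 of 4 P arrays, as its other P spots were flagged for quality. Among neuronal markers, of which 3 of 7 listed had a named probe, Nefl was above background on all 7 arrays. Snap25, an abundant synaptic transcript, was so on 3 of 7, so a dim probe does not by itself show a scarce transcript. The remaining one, Stmn2, had values on only 1 P and 2 NP arrays, as its other spots were flagged for quality. No gene of the 36 tested marker entries was called between the lines by limma, with 6 at an unadjusted p under 0.05, beside 11.4% of all tested genes. Within date 1 limma called 1 of the 36 entries lower and 1 higher in P, beside 6.37% of all genes in either direction. The microglial marker Aif1 was lower (-1.23, adjusted p = 0.0138) and Slc22a6, a marker of the meninges, higher (0.57, adjusted p = 0.0428). Over all 7 arrays they differed in the same directions, by -0.81 (adjusted p = 0.302) and 0.72 (adjusted p = 0.244). The other microglial markers did not follow Aif1 within date 1, with 0.18 for Csf1r, 0.29 for Itgam and 0.0059 for Cx3cr1. The other tested genes of the meninges and vessels had 0.22 for Cldn5 and -0.065 for Dcn within date 1. Their part in the results was not tested.

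None of the 7 neurotrophin and GDNF system probes passed the test between P and NP rats. By limma, with Benjamini-Hochberg adjustment over all 29003 tested probes, 0 of 7 passed an adjusted p of 0.05 and 0 of 7 had an unadjusted p under 0.05. Over the whole array 0.29% of probes passed and 11.5% had an unadjusted p under 0.05. The largest difference was that of Ntrk3, at 0.27 ± 0.12 on the log2 scale (P minus NP ± SE, adjusted p = 0.435). The median difference of the 7 probes was 0.096, with 5 higher and 2 lower in P, beside a median of 0.0078 and 51.4% higher over all tested probes.

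**Figure D1:**
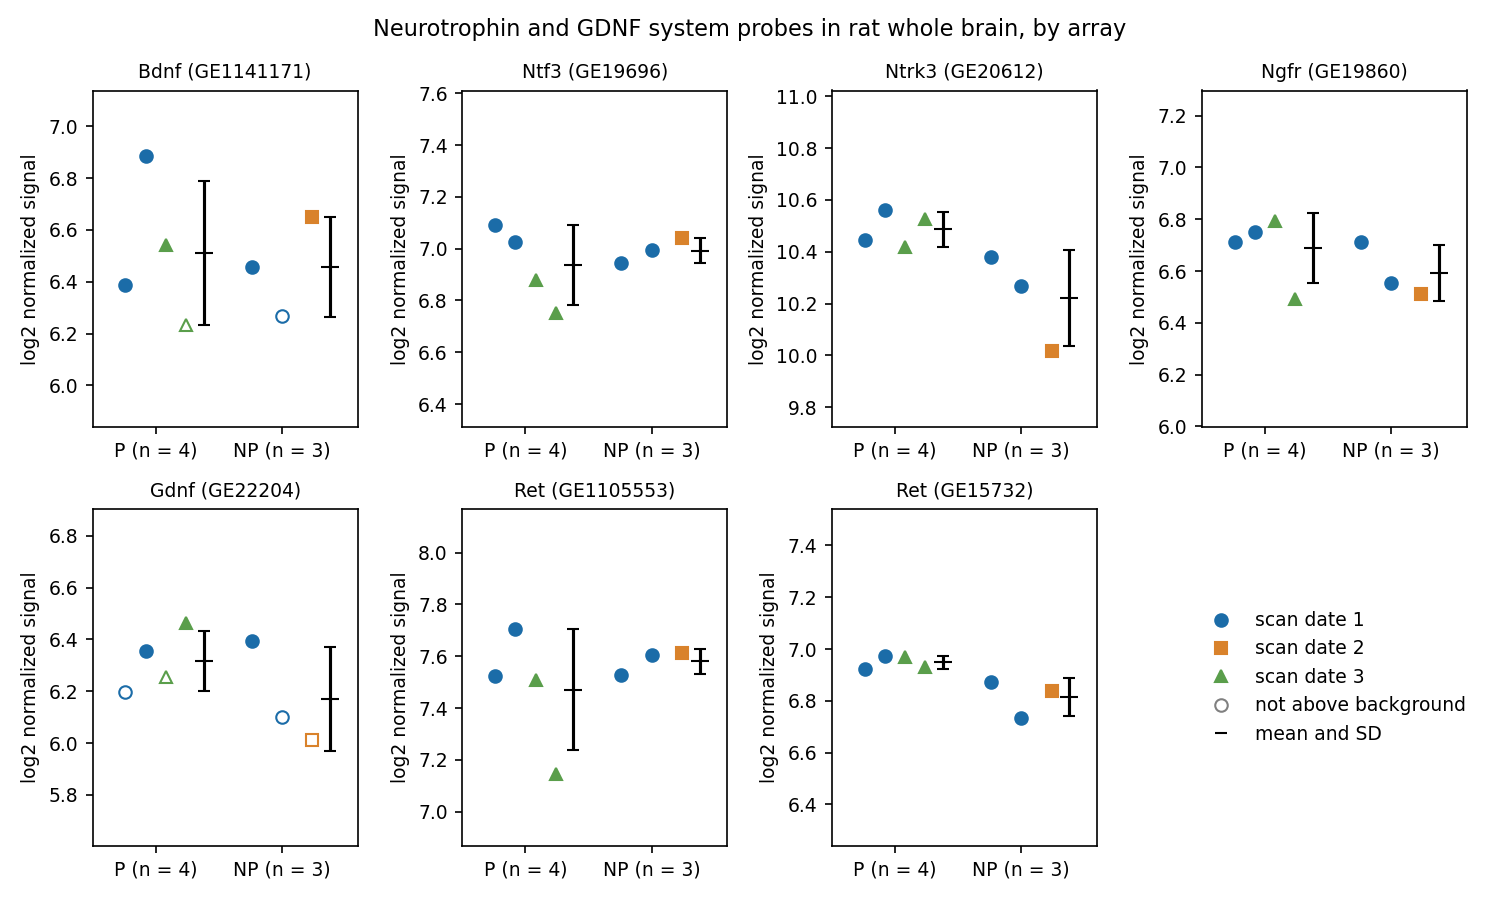
Log2 normalized signal (vertical axis, a span of equal height in every panel) of each neurotrophin and GDNF system probe in 4 P and 3 NP rats. Each point is 1 rat, its colour and shape give the scan date, open points were not above background, and the bar is the mean with its SD; P and NP points are apart for Ntrk3 and for Ret probe GE15732 and overlap for the other 5 probes.

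Among the ligands, Bdnf (probe GE1141171), the most widely expressed neurotrophin of the adult brain, was measured near background. Its log2 normalized signal was 6.39, 6.88, 6.54 and 6.23 in P rats 1 to 4, against 6.46, 6.27 and 6.65 in NP rats 2 to 4. P 2 was the highest and P 4 the lowest of the 7, and the NP values lay between them. The spot was above background on 3 of 4 P arrays and 2 of 3 NP arrays, and its intensity was 1.31 to 1.86 times the local background in P and 1.47 to 1.85 times in NP. The difference was 0.053 ± 0.17 (95% interval -0.32 to 0.42, adjusted p = 0.916). P 4 and NP 3 were not above background, so this difference rests in part on bounds rather than levels. Bdnf transcripts start at several promoters, and the RefSeq table lists 11 of them under the gene. A single probe does not separate these forms, and its position on the transcript was not used here.

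Ntf3 (probe GE19696), which encodes neurotrophin-3, was above background on all 7 arrays. It read 7.09, 7.03, 6.88 and 6.75 in P rats 1 to 4, against 6.94, 6.99 and 7.04 in NP rats 2 to 4. The 3 NP values fell within the range of the P values. Its difference was -0.056 ± 0.12 (95% interval -0.32 to 0.21, adjusted p = 0.871).

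Gdnf (probe GE22204) was above background on 3 of 7 arrays, the fewest of the members. It read 6.20, 6.35, 6.25 and 6.46 in P rats 1 to 4, against 6.39, 6.10 and 6.01 in NP rats 2 to 4. Only P 2, P 4 and NP 2 were above background, and NP 2 was the second highest of all 7 values, so the lines overlapped. The difference was 0.15 ± 0.13 (95% interval -0.14 to 0.44, adjusted p = 0.662). It too rests in part on spots at background. With plain background subtraction it was 0.49 ± 0.31, and in the authors' values 0.46 ± 0.32.

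**Figure D2:**
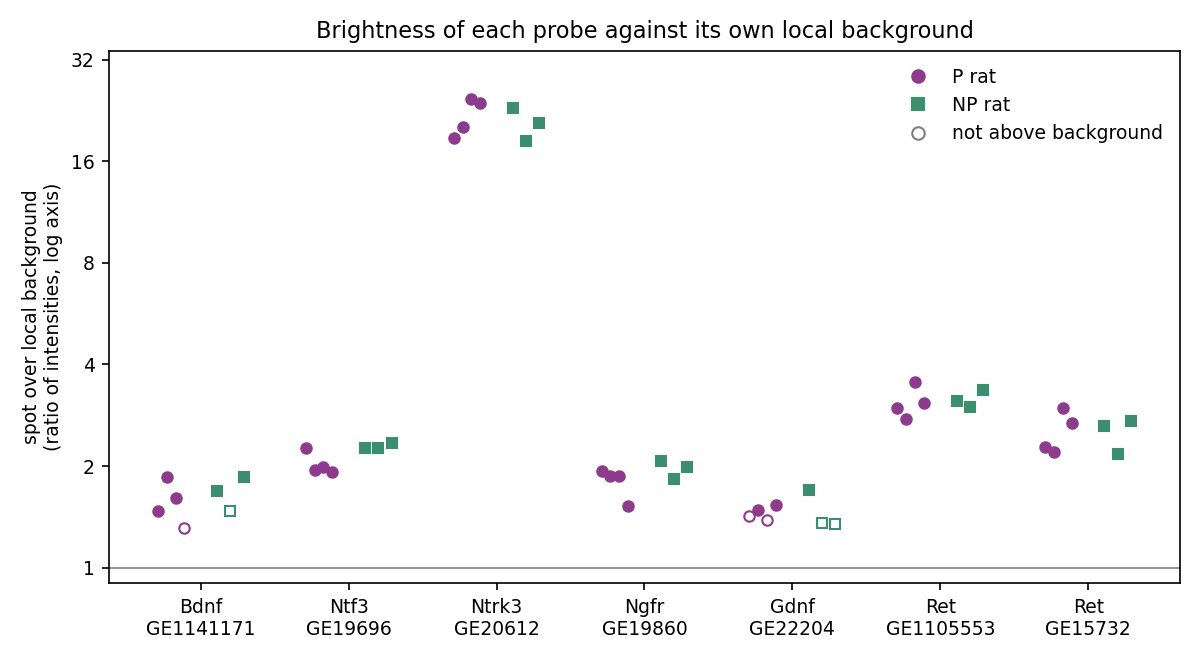
Ratio of spot intensity to the local background of the same spot (vertical axis, log scale) for each of the 7 probes, with P rats left of NP rats and open points for spots not above background. The Ntrk3 probe stood at 18.8 to 24.5 in P and 18.4 to 23.1 in NP, and Gdnf at 1.39 to 1.53 in P and 1.35 to 1.70 in NP; ratios show how well each probe was measured, not how genes rank.

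Among the receptors, Ntrk3 (probe GE20612), the kinase receptor of neurotrophin-3, was the member measured best and the one with the smallest p. It read 10.44, 10.56, 10.42 and 10.53 in P rats 1 to 4, against 10.38, 10.27 and 10.02 in NP rats 2 to 4. All P values lay above all NP values, with a gap of 0.040 between P 3 and NP 2, and NP 4 was the lowest. Means were 10.49 ± 0.07 in P (SD, n = 4) and 10.22 ± 0.19 in NP (SD, n = 3). The fold of P over NP was 1.20 (95% interval 0.996 to 1.45), with an unadjusted p of 0.054 by limma. Without NP 4, the array of scan date 2, the difference was 0.16 (adjusted p = 0.856). With any other array left out it lay between 0.24 and 0.35. On the scaled intensities deposited by the authors, P rats had 13.3 to 15.4 and NP rats 10.3 to 11.7, again apart.

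Ngfr (probe GE19860), the p75 receptor, which in the adult brain is typical of cholinergic neurons of the basal forebrain, was above background on every array at 1.52 to 1.93 times the local background in P and 1.83 to 2.07 times in NP. It read 6.71, 6.75, 6.80 and 6.49 in P rats 1 to 4, against 6.71, 6.55 and 6.51 in NP rats 2 to 4. P 4 was the lowest of all, and NP 2 stood level with P 1, so the lines overlapped. The difference was 0.096 ± 0.12 (95% interval -0.17 to 0.37, adjusted p = 0.766).

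Ret, the signalling receptor for GDNF, was read by 2 probes that did not move together. Probe GE1105553 gave 7.53, 7.71, 7.51 and 7.15 in P rats 1 to 4, against 7.53, 7.61 and 7.61 in NP rats 2 to 4. P 2 was the highest and P 4 the lowest, with the NP values between them. Probe GE15732 gave 6.92, 6.97, 6.97 and 6.93 in P, against 6.87, 6.73 and 6.84 in NP, so every P value was above every NP value, by a gap of 0.049. The differences had opposite signs, at -0.11 ± 0.14 for GE1105553 (95% interval -0.42 to 0.20, adjusted p = 0.770) and 0.13 ± 0.11 for GE15732 (95% interval -0.10 to 0.37, adjusted p = 0.621). Without P 4 the difference of GE1105553 was -0.0013. Across the 7 arrays the 2 probes correlated at r = -0.20, which is a description of 7 arrays, on each of which both probes share 1 hybridization.

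In all, P and NP values did not overlap for 2 of the 7 probes (28.6%), Ntrk3 and Ret GE15732, both with P higher. Over the 27255 tested probes with 7 values this was so for 13.3%, and for 6.91% with P higher. Probe GE15732 also had a small spread, with a pooled SD within lines of 0.050, below that of all but 0.7% of tested probes. Its test uses a variance drawn toward that of all probes, so its SE of 0.11 is wider than this spread alone would give. Bdnf varied most among the members (pooled SD 0.25), against a median of 0.18 over all tested probes.

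The size of difference that could have been called is given by the largest unadjusted p among called probes, 0.000142. At that p and at the SE of each probe, the smallest callable difference was 0.62 for Ret GE15732, 0.71 for Ntf3 and for Ngfr, 0.72 for Ntrk3, 0.77 for Gdnf, 0.83 for Ret GE1105553 and 0.98 for Bdnf. These correspond to folds of 1.53 for Ret GE15732 up to 1.97 for Bdnf. In this fit over all 7 arrays the 95% intervals of the fold, P over NP, lay between 0.745 and 1.45 for all 7 probes. These are folds of the normalized signal after background correction with an offset of 50. With plain background subtraction the dim probes had larger differences. They were 0.49 for Gdnf, 0.19 for Ngfr and 0.23 for Ret GE15732, and that of Gdnf lay above its upper bound of 0.44 in this fit. The intervals therefore do not bound the fold of the transcript itself. Other settings also gave wider intervals for the dim probes. The SE of Bdnf was 0.35 with plain background subtraction and 0.36 in the authors' values, and that of Gdnf 0.31 and 0.32. Within date 1 the upper bound of Bdnf was 0.67 on the log2 scale. An observed difference below the callable size of its probe, at the same SE, would not have been called in this fit over 4 and 3 arrays. The callable sizes do not give the power to detect a true difference.

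Several of these values had another size or sign within a single scan date. Within date 1, with P 1 and P 2 against NP 2 and NP 3, limma called 6.47% of all probes and 0 of the 7 members, with 0 at an unadjusted p under 0.05. There Bdnf differed by 0.27 ± 0.17 (adjusted p = 0.340), Ntrk3 by 0.18 ± 0.13 (adjusted p = 0.397) and Ret GE15732 by 0.14 ± 0.13 (adjusted p = 0.498). Ntf3 and Ret GE1105553, lower in P over all 7 arrays, differed by 0.090 ± 0.12 (adjusted p = 0.675) and 0.050 ± 0.13 (adjusted p = 0.835) within date 1. Ngfr differed by 0.099 ± 0.13 and Gdnf by 0.028 ± 0.15. A fit blocked on scan date draws its line term from those 4 arrays, and in it 5.72% of all probes and 0 members were called.

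The mean of the P rats of date 1 minus that of the P rats of date 3 was 0.29 for Ret GE1105553, 0.25 for Bdnf and 0.24 for Ntf3. It was 0.089 for Ngfr, 0.030 for Ntrk3, -0.082 for Gdnf and -0.0012 for Ret GE15732. The part of scan date in these values was not tested, since P 1 and P 2 also differ from P 3 and P 4 as animals.

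**Figure D3:**
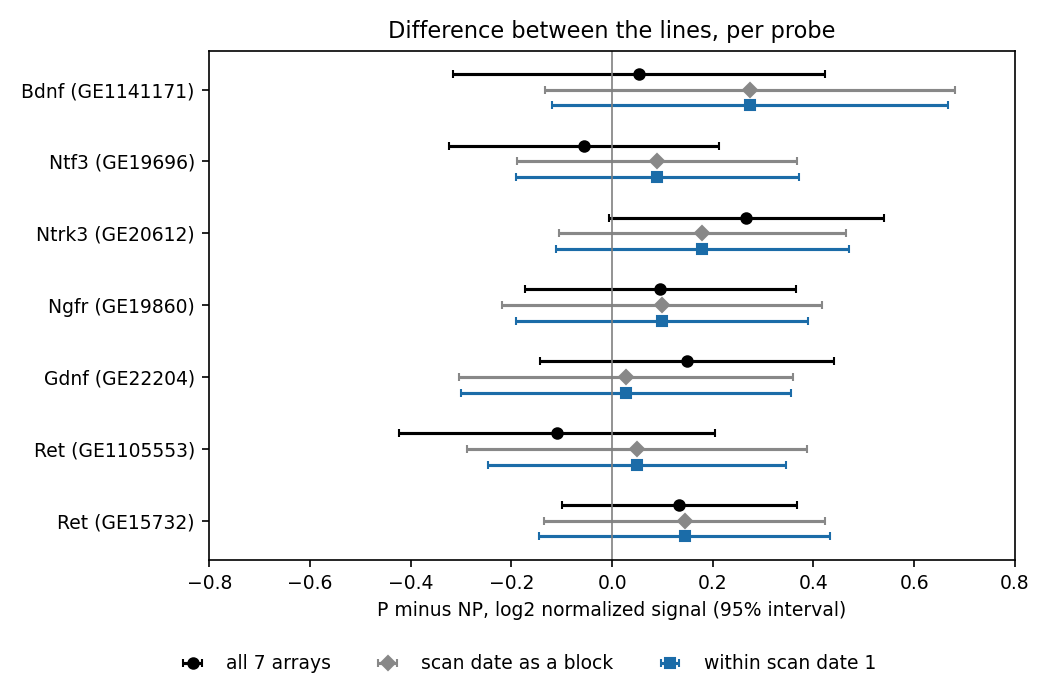
P minus NP difference in log2 normalized signal (horizontal axis) with its 95% interval for each probe, from all 7 arrays, from the fit blocked on scan date, and within scan date 1. Every interval includes 0, and the points of Ntf3 and of Ret GE1105553 lie left of 0 with all 7 arrays and right of it within date 1.

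Other ligands and receptors of the same systems showed no call either: 0 of 13 tested genes passed by limma and 2 had an unadjusted p under 0.05. For single genes, each read by its brightest probe, 0.176% passed over the whole array and 11.4% had an unadjusted p under 0.05. The list median was 0.14, beside 0.032 over all 5677 tested genes, with 9 genes higher and 4 lower in P. Of the 28 genes listed, 14 had a named probe. Ntf4, another ligand of TrkB, was above background on 0 of 4 P arrays and 1 of 3 NP arrays and was not tested.

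Nrtn, which encodes neurturin, a GDNF relative that signals through Ret with the co-receptor Gfra2, had the smallest p of this list. It read 8.77, 8.88, 8.44 and 8.35 in P rats 1 to 4, against 8.15, 8.10 and 7.84 in NP rats 2 to 4. All P values were above all NP values, and P 1 and P 2 were higher than P 3 and P 4. The difference was 0.58 ± 0.16 (95% interval of the fold 1.18 to 1.91) and did not pass over all 7 arrays (adjusted p = 0.276). Within date 1 it was 0.70 (adjusted p = 0.0216), which passed.

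The GFR-alpha co-receptors were above background on all arrays with each of their probes. Gfra1, the co-receptor of GDNF itself, differed by 0.079 ± 0.13, 0.12 ± 0.11 and 0.11 ± 0.11 at its 3 probes. Gfra2 differed by 0.14 ± 0.13 and 0.29 ± 0.19, and Gfra3, the co-receptor of artemin, by 0.20 ± 0.12 and 0.25 ± 0.14. Each of these probes had a higher mean in P, and the smallest adjusted p among them was 0.479. Probes of 1 gene read the same RNA, so they are not separate evidence. Persephin (Pspn), another ligand of this family, differed by 0.32 ± 0.16 (adjusted p = 0.467) over 3 P and 3 NP arrays.

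Kidins220, a membrane scaffold that Trk receptors bind and phosphorylate, had the second smallest p of the list. It read 9.81, 9.57, 9.60 and 9.75 in P rats 1 to 4, against 10.10, 9.81 and 10.22 in NP rats 2 to 4. The lines lay apart by less than 0.01, with P lower, and the difference was -0.36 ± 0.13 (adjusted p = 0.371). Ncam1, an alternative receptor for GDNF, differed by -0.16 ± 0.13 (adjusted p = 0.644).

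Enzymes and carriers that cut or secrete neurotrophin precursors were tested for 19 of 23 listed genes, and 0 passed, with 1 at an unadjusted p under 0.05. Their median difference was 0.090, with 14 higher and 5 lower in P. Plg, the precursor of plasmin, which cleaves proBDNF, differed by 0.30 ± 0.13 (adjusted p = 0.418), and Pcsk7, a proprotein convertase, by 0.31 ± 0.14 (adjusted p = 0.434). Furin, the convertase of the trans-Golgi network, read 9.75, 9.80, 8.91 and 8.76 in P rats 1 to 4, against 9.21, 8.76 and 8.92 in NP rats 2 to 4. P 1 and P 2 were the highest of the 7, while P 3 and P 4 lay within or just below the NP range. Its difference was 0.34 ± 0.26 over all arrays (adjusted p = 0.604) and 0.79 within date 1 (adjusted p = 0.0298).

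Of the adaptors and kinases that carry Trk and Ret signals, 27 of 50 listed genes were tested. By limma 0 passed and 2 had an unadjusted p under 0.05, and the median difference was 0.071, with 20 higher and 7 lower in P. The 2 with the smallest p were both Akt kinases, which relay survival signals. Akt2 read 7.72, 7.39, 7.60 and 7.66 in P rats 1 to 4, against 7.42, 6.95 and 6.93 in NP rats 2 to 4, a difference of 0.49 ± 0.15 (adjusted p = 0.316). P 2 lay just below NP 2, so the lines overlapped. Akt1 differed by 0.43 ± 0.18 (adjusted p = 0.419) over 3 P and 3 NP arrays, as its spot was flagged on P 2. Creb1, the transcription factor through which BDNF induces many genes, differed by -0.055 ± 0.11 (adjusted p = 0.863).

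Transcripts that BDNF or neuronal activity induces were tested for 18 of 25 listed genes. None passed by limma, with 0 at an unadjusted p under 0.05, and the median difference was 0.023, with 11 higher and 7 lower in P. Egr1, an immediate early transcription factor, differed by 0.28 ± 0.14 (adjusted p = 0.456) over 3 P and 3 NP arrays, as its spot was flagged on P 4. Nr4a1, another such factor, read 10.79, 11.07, 10.06 and 10.17 in P rats 1 to 4, against 10.66, 10.92 and 11.21 in NP rats 2 to 4. P 3 and P 4 were the lowest of the 7 and P 1 and P 2 lay within the NP range. Its difference was -0.40 ± 0.24 over all arrays (adjusted p = 0.524) and 0.14 within date 1 (adjusted p = 0.584). Arc, a synaptic immediate early gene that BDNF induces, differed by -0.37 ± 0.22 over all arrays (adjusted p = 0.524) and by 0.14 within date 1.

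Within date 1, 5 of the 77 tested genes of the 4 lists were called by limma, all higher in P, beside 6.37% of all genes in either direction and 2.6% higher in P. They were Nrtn, Furin, Frs3, Junb and Npas4, and apart from Nrtn they were named after their values were seen. Frs3 is a docking protein of Trk receptors and differed by 0.55 within date 1 (adjusted p = 0.0479), against 0.18 over all arrays. Junb and Npas4 are immediate early transcription factors and differed by 0.63 and 0.56 within date 1 (adjusted p = 0.0493 and 0.0487), against 0.11 and 0.28 over all arrays. In the fit blocked on scan date 3 of the 77 were called, Nrtn, Furin and Frs3, all higher in P, beside 5.59% of all genes in either direction and 2.1% higher in P. For Furin, Frs3, Junb and Npas4 the P rats of date 3 read lower than both P rats of date 1.

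**Figure D4:**
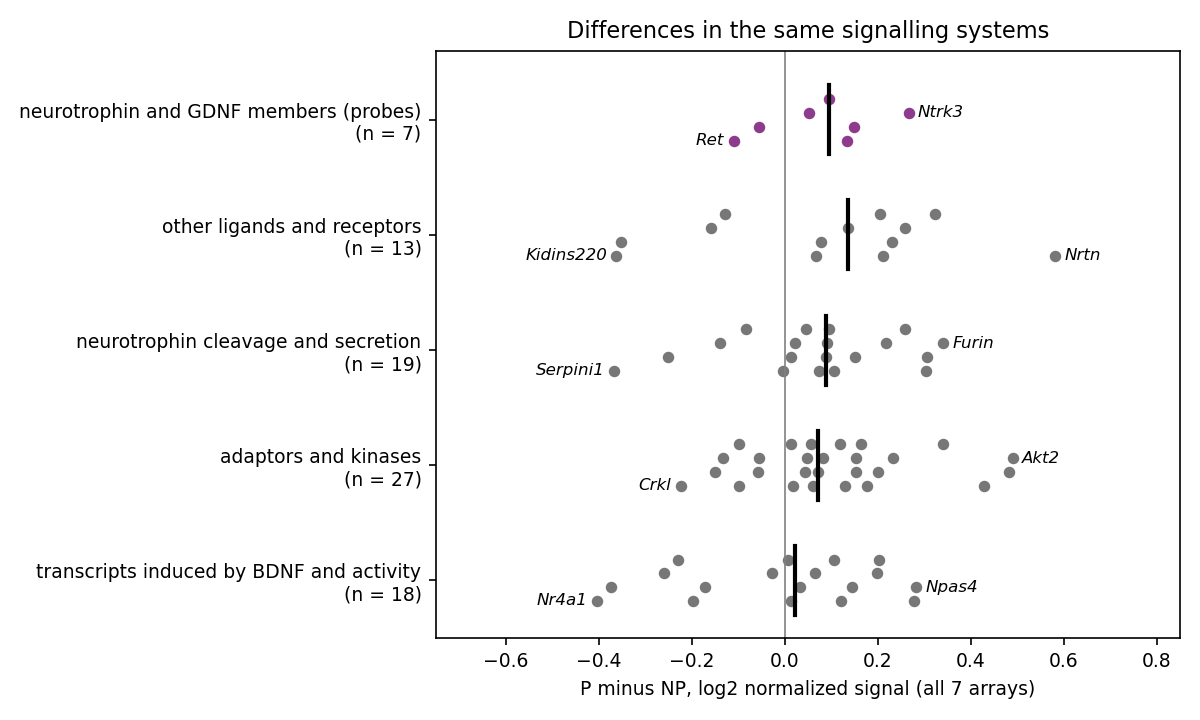
P minus NP difference over all 7 arrays in log2 normalized signal (horizontal axis), with 1 point per tested probe for the neurotrophin and GDNF members and 1 per tested gene for the 4 lists of the same signalling systems. The black bars are medians, at 0.096 for the members and 0.14, 0.090, 0.071 and 0.023 for the lists from top to bottom, the lowest and highest gene of each row is named, and none of the points passed the test.

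The members did not share a pattern across the arrays. Over the 7 arrays, r between members on different genes lay between -0.63, for Ntf3 with Gdnf, and 0.84, for Ntrk3 with Gdnf. Probes on 1 array share its hybridization and normalization. Both of these extremes include Gdnf, which was above background on 3 of 7 arrays, and Bdnf was above background on 5. Ntf3 followed Ret GE1105553 at r = 0.83, and Ntrk3 had r = 0.67 with Ret GE15732. Bdnf had r = 0.67 with Ret GE1105553, 0.43 with Ntf3 and -0.018 with Ntrk3. Among 4638 other genes above background on all arrays, the profile most like that of Ntrk3 was that of Uox (r = 0.997), and r was above 0.9 for 2.26% of genes. For Ntf3 the most alike were Inpp4b (r = 0.977) and Hspb6 (r = 0.946), and for Ngfr Ccr9 (r = 0.986) and Rph3al (r = 0.958). For Ret, by its brighter probe, they were Eif4b (r = 0.968) and Polr2g (r = 0.958). The share of genes with r above 0.9 was 0.388% for Ntf3, 0.0431% for Ngfr and 0.367% for Ret. All the genes named here were picked as the highest r among the 4638. These values describe 7 arrays and were not tested.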

How the data were processed

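Whole-brain RNA of 4 P and 3 NP rats was measured on 1-colour arrays, 1 rat per array, so replicates are separate rats. The deposited scanner tables give, per the file headers, the mean intensity of each spot, the median intensity of its background, their difference, that difference scaled by 1 constant per array, and a flag for spot quality. A series table from the authors holds log2 values; each column tracked its array's scaled intensity on the log2 scale (r from 0.9985 to 0.9999) with column medians between -0.069 and 0.047. Its scale and direction match the scanner values, and any further adjustment between arrays is unknown. The sources used here name no scanner software and no genome build.

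Intensities were corrected with normexp (offset 50) and quantile-normalized over transcript probes in limma 3.58.1 (R 4.3.3). Control spots were left out after the correction, and masked, irregular and contaminated spots were treated as missing. Probes above background on at least 3 of 7 arrays were tested with lmFit and eBayes, P minus NP, without a block, and calls were made at 0.05 after Benjamini-Hochberg adjustment. RefSeq transcripts of GRCr8, compared with the files' accessions after removing versions, named 7207 probes. A gene was represented by its brightest probe, and every probe of the members is given. From each list every called gene was to be named, otherwise the 2 with the smallest p; other list genes were named after their values were seen. Like profiles are the 2 highest r per member among genes above background on all arrays; a few single-gene results are not reported here. The members and lists were chosen with earlier results of these data known. Replicate numbers are not said to pair the rats, so no pairing was used. Deviations of same-numbered rats from their line means correlated at 0.097, 0.057 and 0.021. Those of differently numbered rats lay between -0.32 and 0.36, and so few rats cannot settle whether the numbers pair them. The fit was tested on simulated data. Figures were drawn with matplotlib 3.10.9.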

Additional observations from a re-analysis of the deposited data

How the results depend on the processing

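The 7 arrays limit the precision, and the dim probes of Bdnf and Gdnf most. Under the 21 alternatives 0 of the 7 members was called, in 145 comparisons in all with a smallest adjusted p by limma of 0.210; 134 kept their direction. Ntrk3, Ngfr, Gdnf and Ret GE15732 kept it in each, but with sizes from 0.16 to 0.35 for Ntrk3 and 0.041 to 0.20 for Ngfr. Those of Gdnf ran from 0.028 to 0.49 and those of Ret GE15732 from 0.093 to 0.25. The unadjusted p of Ntrk3 by limma was under 0.05 with median scaling (0.024), cyclic loess (0.039), no background correction (0.0499) and without NP 2 (0.035). It was above 0.05 under the other alternatives, up to 0.211 without NP 4. Bdnf turned with median scaling (-0.035), without the P arrays of date 1 (-0.071) and with 1 array left out (-0.071 without P 2, -0.042 without NP 3; range -0.071 to 0.15). Ntf3 turned with scan date as a block and within date 1 (0.090 in both), without the P arrays of date 3 (0.066) and without P 4 (0.0063; range with 1 array left out -0.11 to 0.0063). Ret GE1105553 turned with the block and within date 1 (0.050 in both) and without the P arrays of date 3 (0.034; range with 1 array left out -0.19 to -0.0013, the last without P 4), and Nr4a1 did so there as well (0.14, 0.14 and 0.00074). The cause was not tested. Nrtn passed with scan date as a block (0.70, adjusted p = 0.0216), within date 1 and without the P arrays of date 3 (0.80, adjusted p = 0.00985), and missed elsewhere. Over all probes the 84 calls became 49 when only probes above background on all arrays were tested, 51 in the authors' values, 154 with array weights, 1655 with scan date as a block, 1870 within date 1, 189 without the P arrays of date 1 and 3318 without those of date 3, and 51 to 121 with 1 array left out. Called list genes, 0 of 77 in the main comparison, were 3 with the block and 5 within date 1, beside 5.59% and 6.37% of all genes. They were 13 without the P arrays of date 3 and 0 under the other alternatives. Without the P arrays of date 3 calls rose over the whole array as well, to 3318 probes. The share over all genes is not given for it, so the 13 are not read as a result about the lists. With the replicate number as a block 104 probes and 0 members were called. The list of induced transcripts had a median of 0.21 within date 1 and with scan date as a block and of -0.16 without the P arrays of date 1, against 0.023 over all arrays, and the adaptors and kinases 0.14 within date 1 and with the block, against 0.071. Calls higher in P were 477 of 1655 with scan date as a block and 544 of 1870 within date 1, against 39 of 84 over all arrays.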
